A study of Mus musculus with 8 samples.

Results

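To describe open chromatin at the Toll-like receptor genes in Xist-deficient hematopoietic progenitors, all ATAC-seq peaks that overlapped the gene body, or the 20 kb on either side of it, of Tlr1, Tlr2, Tlr3, Tlr4, Tlr5, Tlr6, Tlr7, Tlr8, Tlr9 and Tlr13 were collected from 8 deposited peak lists. These are 10 of 21728 annotated protein-coding genes. The lists held 291 such peaks among 501728, and merging peaks that overlapped by at least 1 bp gave 61 regions at these genes among 123260 in the genome. ATAC-seq uses the Tn5 transposase to insert adapters into open chromatin, so that a peak marks a stretch that the enzyme could reach. The family was chosen by an earlier result of these libraries, the presence of peaks at Tlr7 and Tlr13 in XistΔ/Δ and not in wild-type lists, so the genotype values below are a description without a test.

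The cells came from bone marrow of 4.5-month-old female mice of the strain 129Sv4/Jae x B6. Both sorted populations lack mature lineage markers and carry c-Kit. LSK+ cells also carry Sca-1 and include the stem cells, whereas LSK- cells lack Sca-1 and are myeloid progenitors. Wild-type (WT) and XistΔ/Δ mice were used, and in the latter Vav-iCre, a Cre recombinase active throughout the hematopoietic system, removes floxed Xist from both X chromosomes. The 4 groups held 2 libraries each, 8 in all, from about 10000 cells per reaction, and the study calls them biological replicates. How many mice each came from is not given in the sources used here.

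Toll-like receptors recognise conserved parts of microbes. Tlr1, Tlr2, Tlr4, Tlr5 and Tlr6 act at the cell surface on lipopeptides, lipopolysaccharide and flagellin, whereas Tlr3, Tlr7, Tlr8, Tlr9 and Tlr13 sense nucleic acids in endosomes. All except Tlr3 signal through the adaptor Myd88, and Tlr3 and Tlr4 use Ticam1. Tlr7, Tlr8 and Tlr13 lie on the X chromosome, and Tlr7 is known as a gene that escapes X inactivation in some immune cells. Hematopoietic stem and progenitor cells are known to carry some of these receptors.

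Strength was read as the percentile of a peak's −log10 p within its own list, with 100 for the strongest peak of a library and 0 for no peak. A percentile is a rank and not an amount of open chromatin, and in bulk cells fewer cells with an open site cannot be told apart from a less open site in each cell. The lists held between 29829 peaks (LSK+ WT replicate 2) and 91590 peaks (LSK- XistΔ/Δ replicate 1). The background pileup of fragments, a proxy for depth, was between 0.482 and 3.87, and the XistΔ/Δ library was deeper than its WT partner of equal cell type and number in 4 of 4 pairs, so genotype and depth cannot be told apart in the full lists. Calls of presence therefore used the 29829 strongest peaks of every library, the size of the shortest list, which are called the lists of equal length. LSK+ WT replicate 2 gave 15 peaks at the 10 genes, the fewest, and LSK- XistΔ/Δ replicate 1 gave 51, the most. The Xist promoter, within 3 kb of a transcription start site (TSS), had a peak in 4 of 4 WT libraries, at percentiles of 51.2 to 80.6, and in 1 of 4 XistΔ/Δ libraries, LSK- replicate 2, at 26.9. Over the whole Xist gene and 3 kb on either side, LSK+ WT had 12 and 1 peaks and LSK- WT 4 and 2. LSK+ XistΔ/Δ had 1 (at 49.5) and 0, and LSK- XistΔ/Δ had 2 and 2 (at most 76.8 and 47.4). The cell types were checked against marker genes: Gata1, Epor and Ms4a3, which mark erythroid and granulocyte progenitors, had higher TSS-proximal percentiles in all 4 LSK- than in all 4 LSK+ libraries. These are 3 of 8 LSK- markers: Gfi1b, Mpo and Elane were higher in LSK- in 4 of 4 pairs with overlap, Cebpe was split, and the erythroid factor Klf1 was higher in LSK+ in 4 of 4 pairs (91.5 against 87.4 on average). Ly6a, which encodes Sca-1, had a TSS-proximal peak in only 2 libraries, at 10.8 for LSK+ WT replicate 1 and at 29.6 for LSK- XistΔ/Δ replicate 1, so this promoter does not mark the gate. The summed percentiles of the 8 LSK- markers were 176 to 442 in LSK+ and 439 to 561 in LSK- libraries. Markers of T cells had no peak in any library, those of B cells summed to at most 111 and those of neutrophils to at most 110, and Kit stood at 83.0 to 94.5. Of the neutrophil markers, Ltf was higher in all 4 LSK+ (22.5 to 73.8) than in all 4 LSK- libraries (0 to 17.6). S100a8 stood at 17.1 to 62.0, with overlap, and Ly6g had no peak in any library.

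The 7 sequences below are shown because the results turn on them. Each is the 300 bases around the strongest summit of a region, plus strand, read from GRCm38.p6 (mm10), and outside every annotated exon. Capitals mark letters searched for on both strands, which were GAGGAAGT for PU.1, TGTGGT for RUNX, TTGCNNAA for C/EBP, TGANTCA for AP-1, AGATAA for GATA and CCGGAAGT for ETS, and the longer IRF, NF-kB, CTCF and YY1 motifs. The PU.1 and ETS letters share the run GGAAGT.
Tlr13 intron, peak in LSK- libraries, chrX:106154223-106154522: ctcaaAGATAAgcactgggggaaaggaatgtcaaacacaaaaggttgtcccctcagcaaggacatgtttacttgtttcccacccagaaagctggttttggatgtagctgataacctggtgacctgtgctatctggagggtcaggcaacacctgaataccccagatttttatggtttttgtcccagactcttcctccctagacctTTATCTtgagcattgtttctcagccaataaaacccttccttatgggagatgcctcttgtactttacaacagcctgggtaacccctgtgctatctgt
Tlr7 intron, stronger in XistΔ/Δ libraries, chrX:167318834-167319133: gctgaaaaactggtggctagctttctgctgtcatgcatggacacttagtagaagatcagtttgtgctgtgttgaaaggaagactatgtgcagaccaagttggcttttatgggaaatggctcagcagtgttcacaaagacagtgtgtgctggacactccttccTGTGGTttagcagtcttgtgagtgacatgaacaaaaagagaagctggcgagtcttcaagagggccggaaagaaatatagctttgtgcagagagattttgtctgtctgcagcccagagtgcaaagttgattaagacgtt
Tlr13 3′ side, stronger in XistΔ/Δ libraries, chrX:106165133-106165432: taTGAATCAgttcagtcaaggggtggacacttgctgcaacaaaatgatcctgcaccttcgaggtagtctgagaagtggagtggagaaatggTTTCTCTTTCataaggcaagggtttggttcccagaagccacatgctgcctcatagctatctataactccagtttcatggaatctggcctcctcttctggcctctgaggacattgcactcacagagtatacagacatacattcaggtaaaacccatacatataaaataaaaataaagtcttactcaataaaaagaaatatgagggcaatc
Tlr2 upstream, higher in LSK- libraries, chr3:83845250-83845549: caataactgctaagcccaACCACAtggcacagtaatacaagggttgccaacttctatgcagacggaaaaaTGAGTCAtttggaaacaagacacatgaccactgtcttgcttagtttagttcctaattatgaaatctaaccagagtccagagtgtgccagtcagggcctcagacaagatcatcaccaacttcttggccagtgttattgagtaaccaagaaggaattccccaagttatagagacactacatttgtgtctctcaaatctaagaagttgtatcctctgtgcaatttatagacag
Tlr4 intron, higher in LSK- libraries, chr4:66852075-66852374: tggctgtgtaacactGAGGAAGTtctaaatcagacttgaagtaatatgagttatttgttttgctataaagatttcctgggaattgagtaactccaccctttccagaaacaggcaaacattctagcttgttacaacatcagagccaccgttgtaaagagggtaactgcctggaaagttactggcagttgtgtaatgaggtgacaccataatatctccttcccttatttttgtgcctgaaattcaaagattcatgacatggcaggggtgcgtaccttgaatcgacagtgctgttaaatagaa
Tlr9 3′ side, higher in LSK+ libraries, chr9:106230043-106230342: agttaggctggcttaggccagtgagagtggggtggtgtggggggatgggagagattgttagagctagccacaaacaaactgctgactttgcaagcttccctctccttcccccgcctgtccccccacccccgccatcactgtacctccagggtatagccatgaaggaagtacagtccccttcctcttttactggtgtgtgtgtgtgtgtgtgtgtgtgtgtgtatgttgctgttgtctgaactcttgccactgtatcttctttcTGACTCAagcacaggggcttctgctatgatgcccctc
Tlr6 upstream, peak in all 8 libraries, chr5:64960800-64961099: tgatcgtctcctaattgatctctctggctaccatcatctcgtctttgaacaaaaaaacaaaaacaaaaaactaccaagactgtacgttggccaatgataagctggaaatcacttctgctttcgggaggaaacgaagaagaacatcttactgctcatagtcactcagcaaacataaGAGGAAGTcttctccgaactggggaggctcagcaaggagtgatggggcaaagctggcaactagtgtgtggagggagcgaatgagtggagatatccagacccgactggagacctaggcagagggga

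The Tlr13 intronic window held the GATA letters on each strand, at positions -145 and 54 from the summit. The Tlr7 window held the RUNX letters 12 bases after the summit, and the Tlr6 window held the PU.1 letters 25 bases after it. The Tlr4 window held the PU.1 letters and the Tlr2 window the RUNX and AP-1 letters, all at least 80 bases from the summit. The Tlr9 window held the AP-1 letters 113 bases after the summit, and the window beyond the 3′ end of Tlr13 held IRF and AP-1 letters at positions -59 and -148 from it. Over the 61 regions, the PU.1 letters were in 11 (18.0%), against 7.97% of all 123260 regions. The AP-1 letters were in 14 (23.0%), against 11.1%. The RUNX letters were in 13 (21.3%), against 30.7%, and the GATA letters in 8 (13.1%), against 21.4%. The C/EBP letters were in 7 (11.5%, against 13.9%), the IRF letters in 3 (4.92%, against 5.03%) and the CTCF letters in 1 (1.64%, against 0.954%). The NF-kB, ETS and YY1 letters were in 0 of the 61, where 1.53%, 1.31% and 0.178% of all regions held them. These are matches of letters and not binding sites, and neighbouring regions of one gene are not independent. The median GC content was 47.7% at the Toll-like receptor genes and 48.7% over all regions. RefSeq promoter sequences (GRCm38.p6, 300 bases around a start) were found for 8 of the 10 genes, in 10 entries, and not for Tlr4 and Tlr7. The PU.1 letters stood in 2 entries (Tlr1 and Tlr9), against 3.20% of 32851 promoters. The C/EBP letters stood in 4 (Tlr3, Tlr6, Tlr8 and Tlr13), against 10.8%, and the GATA letters in 2 (Tlr3 and Tlr9), against 11.2%. The RUNX and IRF letters were each in 1 (Tlr6), against 16.8% and 3.44%. The NF-kB letters were in 1 (Tlr3), against 1.63%, and the AP-1 letters in 1 (Tlr9), against 7.81%. The ETS, CTCF and YY1 letters were in 0, against 3.89%, 0.0791% and 0.633%.

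Of the 61 regions, 15 lay within 3 kb of a TSS of a Toll-like receptor gene, 11 in an intron and 1 in an exon of one, 5 near the TSS and 2 in the body of another gene, and 27 between genes. Their width was 124 to 1509 bases, with a median of 478. A peak was present in all 8 libraries in 13 regions, in at least 4 libraries in 37 and in 1 library only in 8. On the lists of equal length, 6 regions were present in all 8 libraries and 30 in none. In the Tlr9 window, 4 of 9 regions belong to the promoters or bodies of Twf2 and Alas1. The Tlr1 TSS region also fell into the Tlr6 window and is counted once, under Tlr1.

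**Figure D1:**
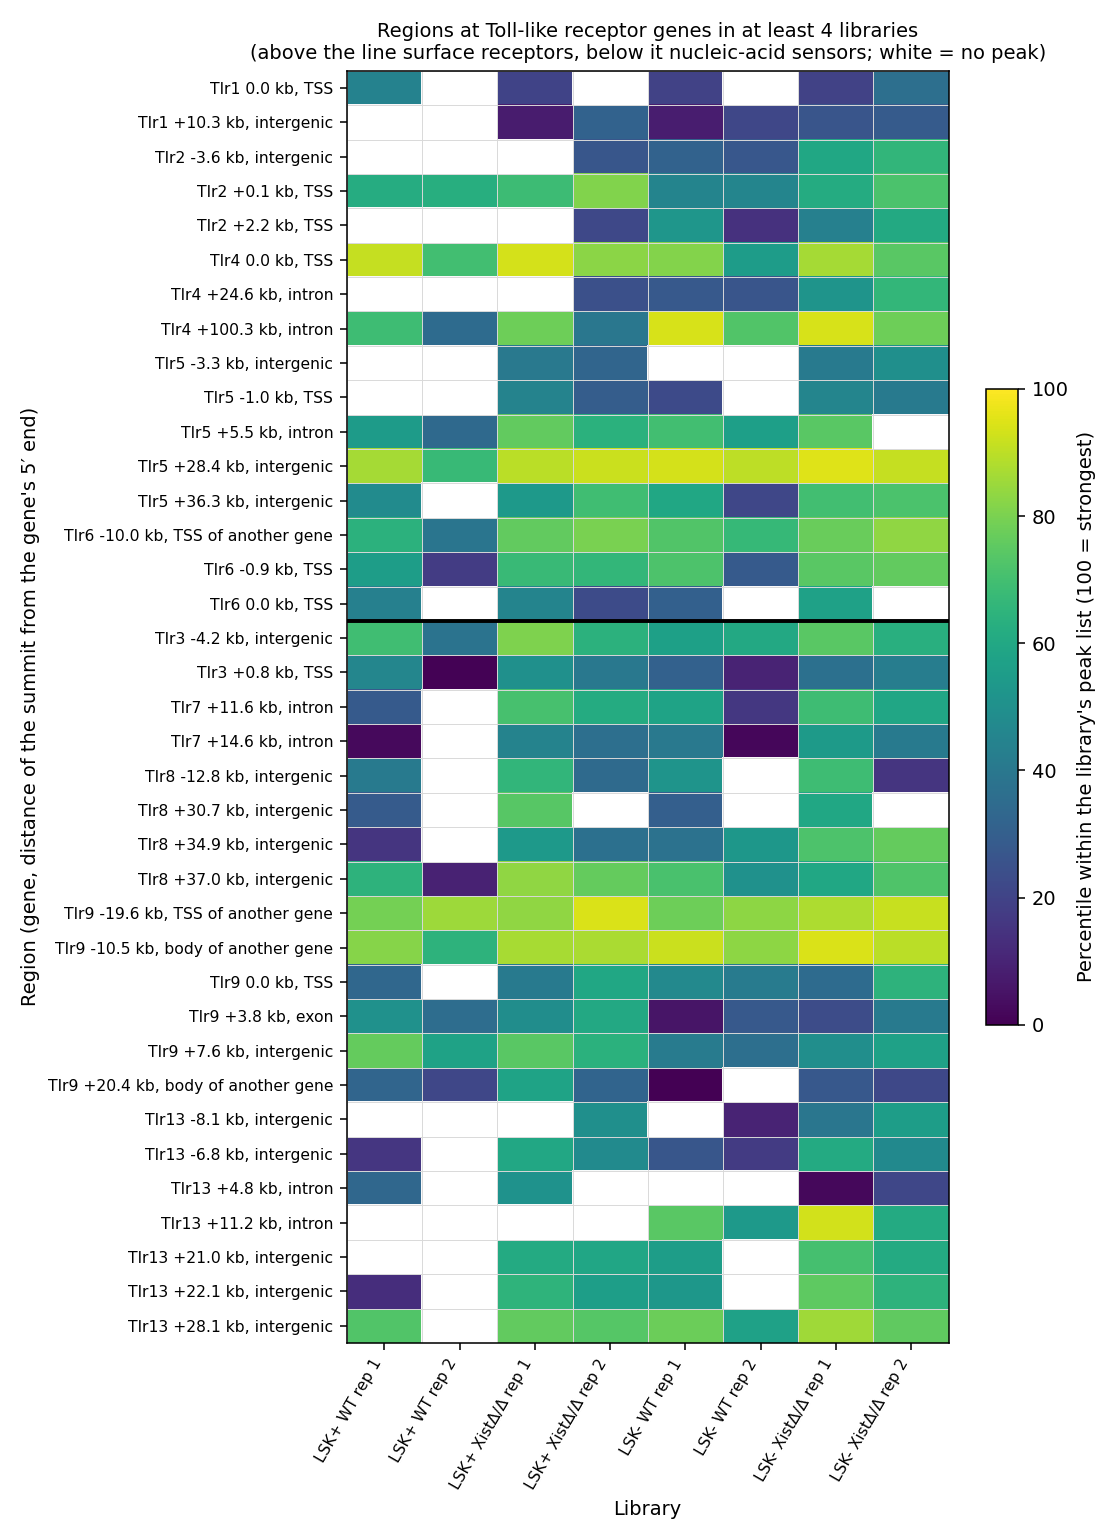
Percentile within the library's peak list (colour, 0 to 100; white, no peak) of the 37 regions at Toll-like receptor genes that had a peak in at least 4 libraries. Rows are regions, named by gene, distance of the summit from the gene's 5′ end in kb and place; columns are the 8 libraries. The 16 rows above the line belong to surface receptors and the 21 below it to nucleic-acid sensors. The Tlr13 intronic row at 11.2 kb is filled in the 4 LSK- columns alone.

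Among the surface receptors, Tlr4, the receptor for lipopolysaccharide, had the strongest promoter. The region at its TSS (chromosome 4, 66827246 to 66828451, mm10, summit in an exon) had a peak in all 8 libraries. Its percentile was 91.3 and 69.8 for LSK+ WT, 93.6 and 82.5 for LSK+ XistΔ/Δ, 81.6 and 55.2 for LSK- WT and 86.5 and 74.3 for LSK- XistΔ/Δ. The LSK+ library was higher than its LSK- partner in 4 of 4 pairs, but the groups overlapped, with 84.3 ± 10.8 in LSK+ against 74.4 ± 13.8 in LSK- (SD, n = 4 each; exact permutation within genotype, two-sided, p = 0.333; adjusted over all 16238 genes, 0.808). On the lists of equal length they did not overlap: 81.6, 69.8, 82.2 and 63.0 in LSK+ against 56.1, 43.5, 58.6 and 46.0 in LSK-. Of all genes, 3.32% had all 4 LSK+ percentiles above all 4 LSK- percentiles on these lists. The adjusted p there was 0.639 over all genes (exact permutation, two-sided).

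An intronic region near the annotated 3′ end of Tlr4 ran the other way. It lay 100268 bases from the gene's 5′ end (66927455 to 66928188). Its percentiles were 69.0 and 34.9 for LSK+ WT, 77.8 and 39.8 for LSK+ XistΔ/Δ, 94.0 and 72.7 for LSK- WT and 93.8 and 77.9 for LSK- XistΔ/Δ. It was higher in LSK- in 4 of 4 pairs, although the highest LSK+ library lay above the lowest LSK- one. A second intronic region, at 24641 bases (66852028 to 66852452), had no peak in 3 LSK+ libraries and stood at 24.5 for LSK+ XistΔ/Δ replicate 2, against 28.1, 26.5, 51.7 and 66.0 in the 4 LSK- libraries. Here the groups did not overlap.

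Tlr2, the receptor for bacterial lipopeptides that pairs with Tlr1 or Tlr6, showed the same opposition between promoter and flank. The promoter region (chromosome 3, 83840981 to 83841863, summit 116 bases into the gene) had a peak in all 8 libraries, at 62.1 and 62.8 for LSK+ WT, 68.6 and 80.9 for LSK+ XistΔ/Δ, 45.0 and 45.7 for LSK- WT and 61.3 and 71.8 for LSK- XistΔ/Δ. It was higher in LSK+ in 4 of 4 pairs, with overlap between the groups (exact permutation, p = 0.111; adjusted over all 92019 regions tested, 0.577). A region upstream, at -3633 bases from the 5′ end (83845052 to 83845529) had no peak in 3 LSK+ libraries and 26.8 for LSK+ XistΔ/Δ replicate 2. In LSK- it stood at 31.4, 27.3, 59.4 and 65.8, above every LSK+ library. A region in the gene body, 2155 bases from the TSS (83839409 to 83839812), was absent from 3 LSK+ libraries, at 21.8 for LSK+ XistΔ/Δ replicate 2, and at 52.4, 14.3, 43.5 and 60.7 in LSK-, so that the groups overlapped.

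Tlr6 and Tlr1, neighbours on chromosome 5, differed in the strength of their strongest TSS-proximal region. That of Tlr6 lay at -853 bases from the 5′ end (64960709 to 64961477). It had a peak in all 8 libraries, also on the lists of equal length. Its percentiles were 55.6 and 17.7 for LSK+ WT, 67.9 and 66.1 for LSK+ XistΔ/Δ, 72.2 and 28.2 for LSK- WT and 74.4 and 75.8 for LSK- XistΔ/Δ. It was higher in LSK- in 4 of 4 pairs, with wide overlap (51.8 ± 23.4 against 62.7 ± 23.0; SD, n = 4 each; exact permutation p = 0.389). The Tlr1 TSS region (64933404 to 64933822) had a peak in 5 libraries, at 44.2 at most, and in none on the lists of equal length. At the Tlr6 start itself a region was also weak, with its summit at -9 bases from the 5′ end (64959035 to 64960185). That region had a peak in 5 libraries, at 57.3 at most, and in none on the lists of equal length.

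Tlr5, the receptor for flagellin, had a weak promoter and strong flanking regions. Its TSS-proximal percentile was 5.7 and 0 for LSK+ WT, 44.7 and 29.6 for LSK+ XistΔ/Δ, 22.6 and 0 for LSK- WT and 45.6 and 40.7 for LSK- XistΔ/Δ. By contrast, a region 28363 bases from the 5′ end, beyond the 3′ end (chromosome 1, 182983042 to 182983698), stood at 86.6 and 67.3 for LSK+ WT, 89.7 and 92.0 for LSK+ XistΔ/Δ, 93.5 and 90.1 for LSK- WT and 95.3 and 91.2 for LSK- XistΔ/Δ. It had the highest mean percentile of the surface receptor regions, and no gene of the annotation covers it. An intronic region at 5491 bases (182959598 to 182960606) was present in every library except LSK- XistΔ/Δ replicate 2, at 34.2 to 76.0. A further region beyond the 3′ end (182990746 to 182991410) was in the lists of equal length of both LSK- WT and no LSK+ WT library, but only just, at percentiles of 3.50 and 1.69 there. In the full lists it stood at 48.1 and 0 for LSK+ WT and 59.4 and 21.3 for LSK- WT, with overlap, and the call was lost when peaks were ranked by fold, at −log10 q of at least 5 and with the 25000 strongest peaks.

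Among the nucleic-acid sensors, Tlr13, which recognises bacterial ribosomal RNA, held the largest difference between the cell types. A region in its intron (chromosome X, 106154083 to 106154844, 11169 bases from the 5′ end) had no peak in any LSK+ library and stood at 74.4 and 54.0 for LSK- WT and at 93.0 and 61.1 for LSK- XistΔ/Δ. The difference was -70.6 points (LSK+ minus LSK-), and the LSK- libraries had 70.6 ± 17.1 (SD, n = 4; exact permutation p = 0.0556, the smallest that 36 assignments allow; adjusted over all regions, 0.468). The summits held 45, 22, 223 and 31 fragments, with enrichments of 10.7, 10.1, 14.5 and 10.9-fold over the local background. The lists with the peak held 37578 to 91590 peaks and those without it 29829 to 82488. This was the only Toll-like receptor region in all 4 LSK- and no LSK+ library on the lists of equal length, 1 of 17 with a peak in at least 4 of these lists. Over the genome 5.54% of 29560 such regions had the pattern, a share near that of the receptors. None of the 17 had the reverse. Of the markers of macrophages and monocytes reported here, Cd68 and Ccr2 were higher in LSK- in 4 of 4 pairs, Csf1r was higher in LSK+ in 4 of 4 and Adgre1 in 3 of 4, and C1qa was at 0 in all 8 libraries. The percentiles of 3 plasmacytoid dendritic cell genes summed to 103 to 175 in LSK+ and 166 to 224 in LSK-. The part of either in this result was not tested.

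**Figure D2:**
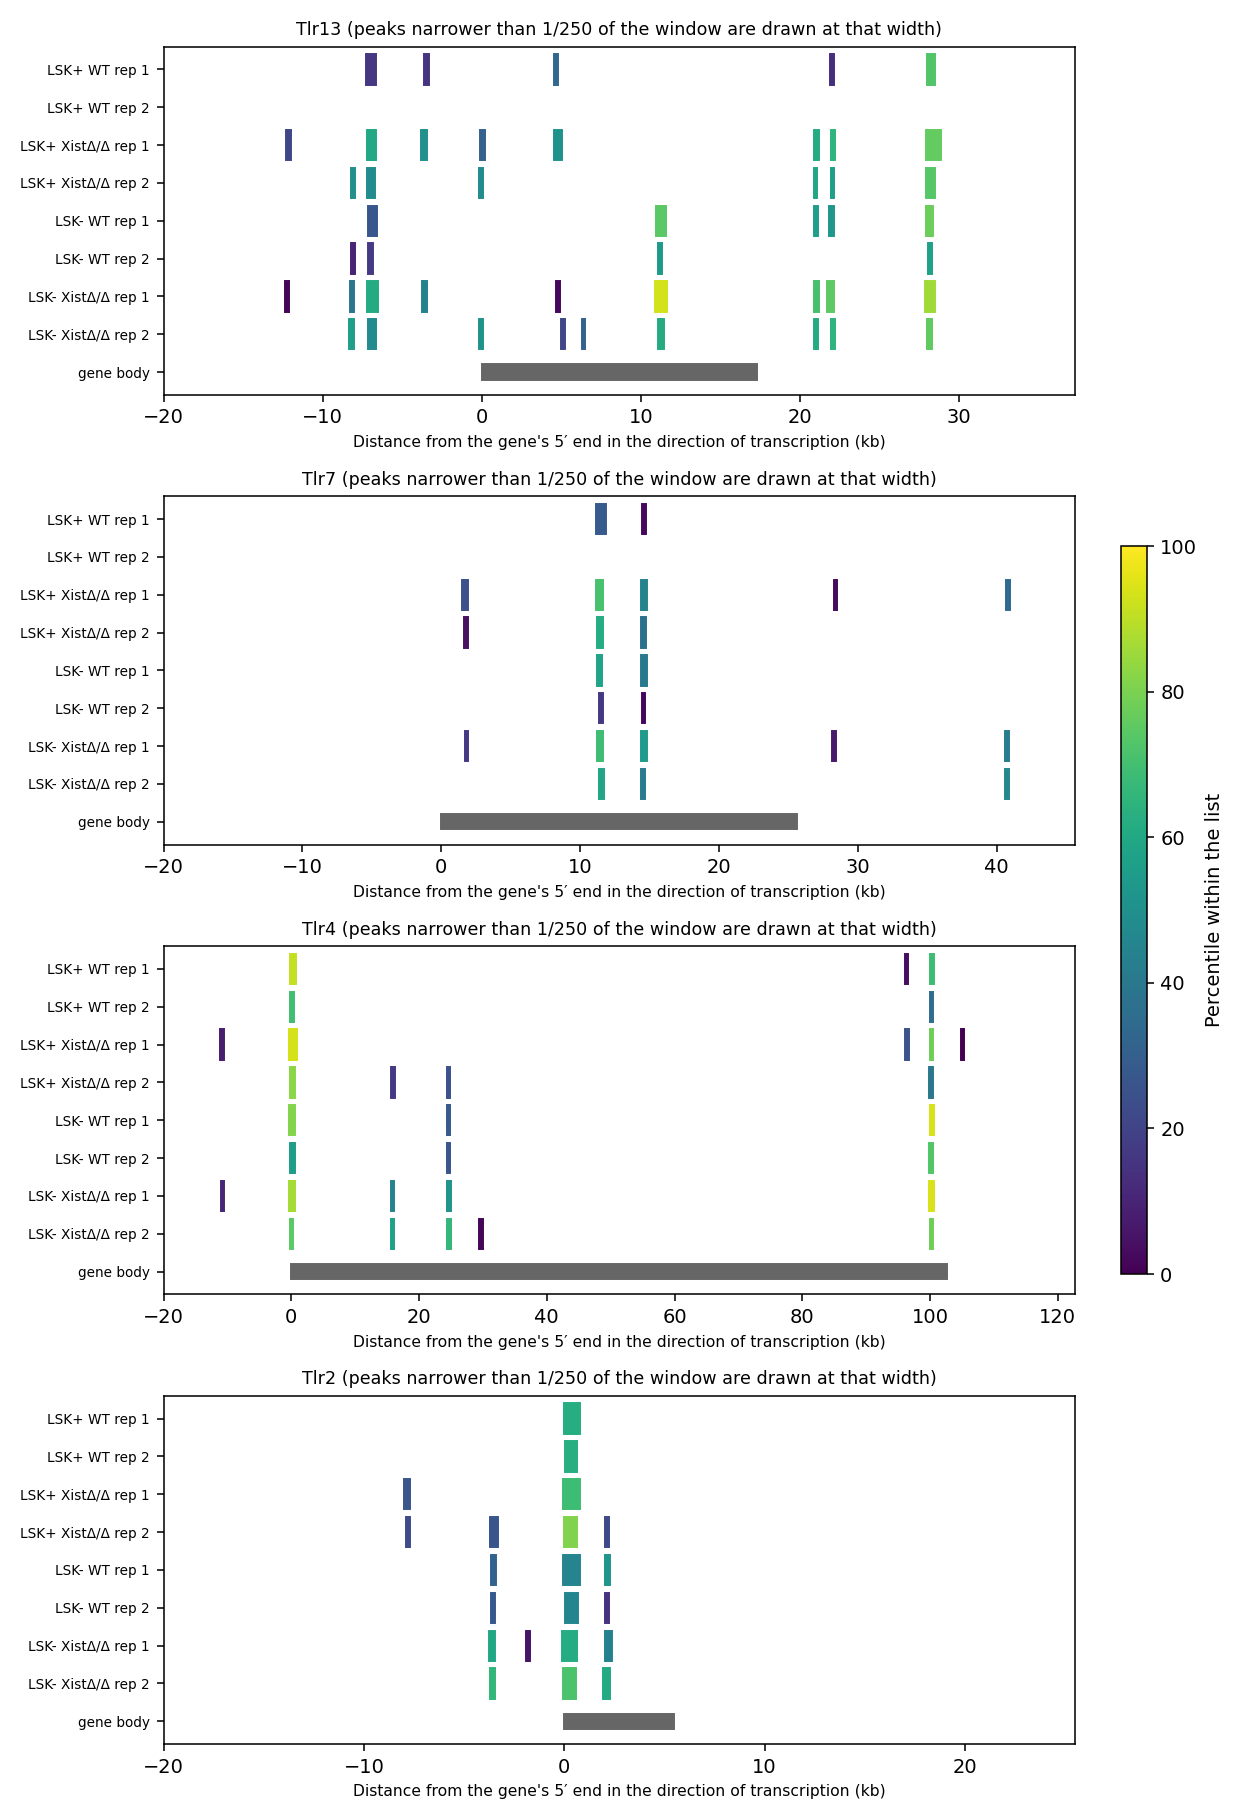
Peaks of each of the 8 libraries at Tlr13, Tlr7, Tlr4 and Tlr2, against the distance from the gene's 5′ end in kb in the direction of transcription, with the 20 kb on either side. Colour gives the percentile within the list and the grey bar the gene body. Tlr13 has an intronic peak in the 4 LSK- rows, and Tlr4 has its strongest peaks at its start and near its 3′ end.

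The other Tlr13 regions were weak or lay beyond the gene. Its TSS-proximal percentile was 0 in all 4 WT libraries, 30.6 and 47.8 for LSK+ XistΔ/Δ, and 0 and 51.0 for LSK- XistΔ/Δ. None of these TSS-proximal peaks was in the lists of equal length. The strongest region of the window (106171076 to 106172051, 28098 bases from the 5′ end) stood at 73.0 and 0 for LSK+ WT, 76.2 and 73.5 for LSK+ XistΔ/Δ, 77.7 and 57.2 for LSK- WT and 85.8 and 75.6 for LSK- XistΔ/Δ. It was thus missing from the shortest list alone.

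Tlr7 and Tlr8, which sense single-stranded RNA and lie side by side on the X chromosome, had almost no signal at their starts. The Tlr7 TSS-proximal percentile was 24.5 and 4.1 for LSK+ XistΔ/Δ, 16.6 and 0 for LSK- XistΔ/Δ and 0 in all 4 WT libraries, and that of Tlr8 was 40.8 and 13.1 in replicate 1 of LSK+ and LSK- XistΔ/Δ and 0 in the other 6. On the lists of equal length neither gene had a TSS-proximal peak in any library. The strongest Tlr7 region lay in an intron, 11574 bases from the 5′ end (167318667 to 167319435). Beyond the 3′ end of Tlr8, a region at 34947 bases from its 5′ end (167229278 to 167229693) stood at 15.3 and 0 for LSK+ WT, 53.9 and 37.0 for LSK+ XistΔ/Δ, 37.9 and 52.8 for LSK- WT and 72.2 and 76.2 for LSK- XistΔ/Δ. It was higher in LSK- in 4 of 4 pairs, with overlap, and on the lists of equal length both LSK- XistΔ/Δ and no LSK+ XistΔ/Δ library had it. Another region on that side (167227013 to 167227631) was in all 8 libraries, at 9.4 to 83.3.

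Tlr9, the receptor for unmethylated CpG DNA, was the sensor with the strongest promoter. Its TSS region (chromosome 9, 106222334 to 106222807) stood at 33.3 and 0 for LSK+ WT, 41.3 and 59.7 for LSK+ XistΔ/Δ, 47.03 and 41.8 for LSK- WT and 34.8 and 64.7 for LSK- XistΔ/Δ, with full overlap of the cell types. Of 4 regions more than 3 kb from the 5′ end on the 3′ side, 3 were higher in LSK+ in 4 of 4 pairs, and the weakest, at 9314 bases, had no peak in LSK+ and stood at 8.92, 20.8 and 31.0 in 3 LSK- libraries. The region 7595 bases from the 5′ end (106230058 to 106230925) stood at 76.4, 57.5, 74.6 and 64.0 in LSK+ and at 41.8, 36.6, 49.4 and 57.2 in LSK-, without overlap, although the lowest LSK+ library was less than 1 point above the highest LSK- one. A region in an exon (106226103 to 106226690) stood at 35.6 to 60.2 in LSK+ and 5.7 to 40.7 in LSK-, and a region in the body of Alas1 (106242756 to 106243446), the first enzyme of heme synthesis, at 21.5 to 57.9 in LSK+ and 0 to 27.5 in LSK-. In the body of Twf2, on the 5′ side, a region (106211713 to 106212410) was higher in LSK- in 4 of 4 pairs, at 82.9 to 94.3 against 64.5 to 87.1.

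Tlr3, which senses double-stranded RNA, had a promoter region (chromosome 8, 45409843 to 45410696, also within 3 kb of the TSS of Gm45542) with percentiles of 46.0 and 0.5 for LSK+ WT, 50.1 and 40.0 for LSK+ XistΔ/Δ, 31.0 and 9.8 for LSK- WT and 36.8 and 42.4 for LSK- XistΔ/Δ. A region at -4173 bases from the 5′ end (45414950 to 45415518) was stronger, at 69.2, 38.2, 80.5 and 64.1 in LSK+ and 56.8, 60.4, 74.6 and 63.1 in LSK-. Neither separated the cell types.

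Of the 53 regions with a peak in at least 2 libraries, an exact permutation within genotype gave the smallest possible p of 0.0556 in 10. Of these, 7 were higher in LSK-, where 7.82% of 92019 regions were, and 3, all in the Tlr9 window, in LSK+, where 4.04% were. No region of the genome passed after adjustment (smallest adjusted p, 0.468 over 92019 regions), and the design cannot reach 0.05 for a single region. All 4 LSK- percentiles lay above all 4 LSK+ percentiles in 3 of the 37 regions with peaks in at least 4 libraries, those at Tlr2, Tlr4 and Tlr13 above, where 7.28% of 60447 regions did. The reverse held for 1, the Tlr9 region, where 4.18% did. These shares are close to the background. The regions upstream and in the body of Tlr2, the 2 intronic regions of Tlr4 and the 3 regions on the 3′ side of Tlr9 lie outside the rule for named regions and were chosen after their values were seen.

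On the lists of equal length, 2 of 16 regions were specific to LSK- in WT (Tlr13 intron and Tlr5 3′ side), against 12.0% of 32944 eligible regions of the genome, and 0 of 16 to LSK+, against 9.71%. In XistΔ/Δ, 2 of 21 were specific to LSK- (Tlr13 intron and Tlr8 3′ side), against 8.33% of 32209, and 0 of 21 to LSK+, against 11.3%.

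At the TSS, none of the 10 genes separated the cell types in the full lists, where 2.09% of 14814 genes had all 4 LSK+ percentiles above all 4 LSK- percentiles and 1.90% the reverse. No gene of the genome passed the exact permutation test at an adjusted p of 0.05 (the smallest was 0.454 over 16238 genes), and the unadjusted p cannot go below 0.0556. Within pairs of the same genotype and replicate number, LSK+ was higher in 4 of 4 pairs for Tlr2 and Tlr4 (9.65% of genes) and LSK- in 4 of 4 for Tlr6 (23.7% of genes). The difference was 10.8 points for Tlr2, 9.91 for Tlr4 and -10.8 for Tlr6, where the SD over 4 libraries was 8.72 in LSK+ and 11.3 in LSK- for Tlr2, 10.8 and 13.8 for Tlr4 and 23.4 and 23.0 for Tlr6. It was between -13.5 (Tlr9) and 6.92 (Tlr8) for the other 7.

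**Figure D3:**
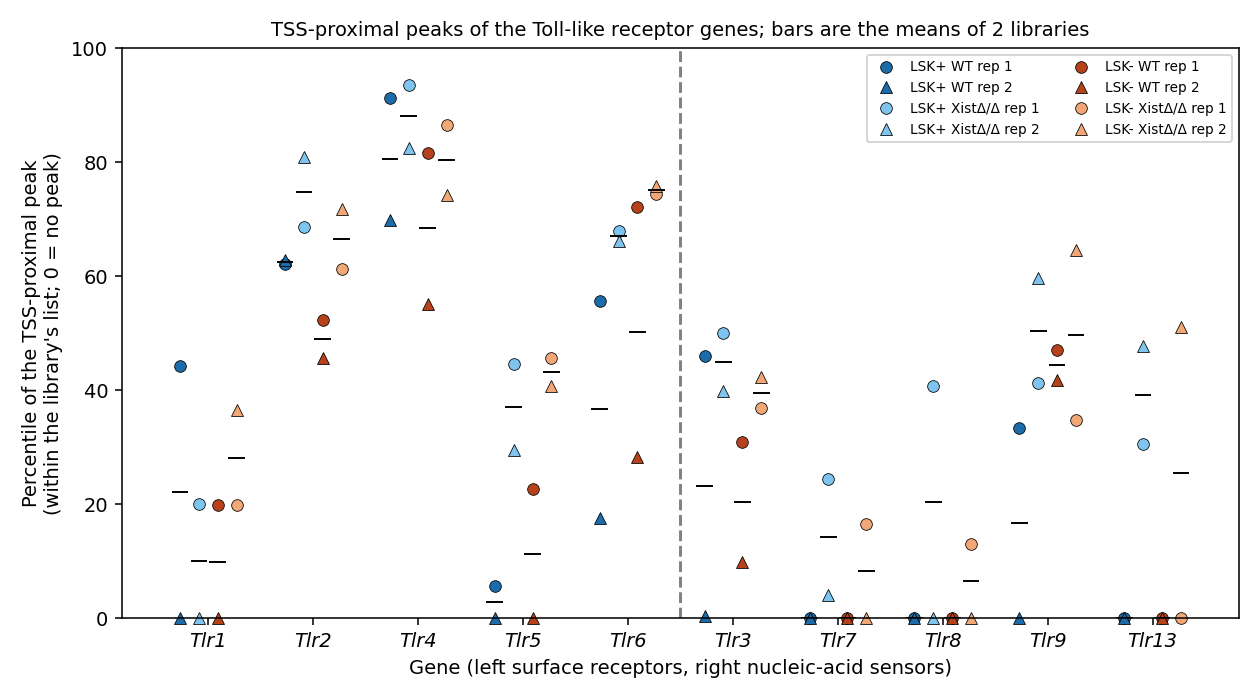
Percentile of the strongest peak within 3 kb of a TSS of each Toll-like receptor gene (y axis, 0 for no peak). Circles and triangles are replicates 1 and 2, colours the 4 groups, and bars the means of 2 libraries. Values are from the full lists. Tlr4 lies between 55.2 and 93.6 in all 8 libraries, while the sensors Tlr7, Tlr8 and Tlr13 are at 0 in the 4 WT libraries. On the lists of equal length Tlr7, Tlr8 and Tlr13 had no TSS-proximal peak in any library of either genotype.

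On average, the surface receptors had stronger promoters than the sensors in each library. Ordered by the mean over the 8 libraries, Tlr4 led with 79.3 ± 12.6 (SD, n = 8), followed by Tlr2 with 63.2 ± 11, Tlr6 with 57.3 ± 22.3, Tlr9 with 40.3 ± 19.7, Tlr3 with 32.1 ± 17.7, Tlr5 with 23.6 ± 19.6, Tlr1 with 17.6 ± 16.9, Tlr13 with 16.2 ± 23.1, Tlr8 with 6.74 ± 14.5 and Tlr7 with 5.65 ± 9.54. Tlr4 was above Tlr2 in 8 of 8 libraries, and Tlr6 above Tlr9 in 7 of 8. The gap between each pair of neighbours from Tlr2 down, that between Tlr6 and Tlr9 included, was smaller than the spread over libraries. The mean over the 5 sensors was 15.9 and 0.101 for LSK+ WT, 37.5 and 30.3 for LSK+ XistΔ/Δ, 15.6 and 10.3 for LSK- WT and 20.3 and 31.6 for LSK- XistΔ/Δ. That over the 5 surface receptors was 51.8 and 30.04 for LSK+ WT, 59.0 and 51.8 for LSK+ XistΔ/Δ, 49.7 and 25.8 for LSK- WT and 57.6 and 59.8 for LSK- XistΔ/Δ. The sensors were lower by 15.5 to 37.3 points in the 8 libraries. Genes are not replicates, so no test was made. The classes overlap, since Tlr9 and Tlr3 stood above Tlr5 and Tlr1, and 3 of the 5 sensors but no surface receptor are X-linked. With the autosomal sensors Tlr3 and Tlr9 alone the mean difference was -12.01 points, against -28.0 with all 5. Both classes lay below the median of all genes with a TSS-proximal peak, which was 69.0 to 88.0 across libraries. In all, 35 regions lay at sensors, 6 of them near the sensor's TSS, and 26 at surface receptors, 9 of them near the receptor's TSS.

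The genotype comparison rests on the values that led to these genes and is given as a description. In the full lists the median XistΔ/Δ minus WT difference was 23.4 points over the 22 X-linked regions (Tlr7, Tlr8 and Tlr13) and 9.75 over the 39 autosomal ones. Over all X-linked and autosomal regions of the genome it was 8.08 and 7.28. The XistΔ/Δ library was higher in 4 of 4 pairs in 8 of the 22 X-linked and 14 of the 39 autosomal regions. The WT library was higher in 4 of 4 pairs in 0 regions of either set. Depth moves with genotype in these values.

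The earlier result concerned the Tlr7 intron and a region beyond the 3′ end of Tlr13 (106164902 to 106165363, 22079 bases from its 5′ end). Both were in the lists of equal length of all 4 XistΔ/Δ libraries and no WT library, 2 of 17 eligible regions against 0.112% of 29560. Both counted as gained in LSK+ (2 of 16, against 3.21% of 31858) and in LSK- (3 of 22 with the region named next, against 1.54% of 32203). These shares come from the contrast that led to the family and support nothing. Another region beside the latter (106164061 to 106164389) was gained in LSK- alone on the lists of equal length. There it stood at 0 and 13.6 for LSK+ XistΔ/Δ, at 9.15 and 18.3 for LSK- XistΔ/Δ and at 0 in every WT library. In the full lists it stood at 0 and 0 for LSK+ WT, 61.1 and 59.2 for LSK+ XistΔ/Δ, 55.6 and 0 for LSK- WT and 70.4 and 61.0 for LSK- XistΔ/Δ. By presence in the full lists it would thus count as gained in LSK+ and not in LSK-. None of the regions was lost in LSK+ (2.22% of the eligible regions of the genome) or in LSK- (1.74%).

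In the full lists the same regions were not absent from WT. The Tlr7 intron stood at 28.2 and 0 for LSK+ WT, 71.0 and 61.4 for LSK+ XistΔ/Δ, 58.0 and 16.1 for LSK- WT and 68.8 and 59.0 for LSK- XistΔ/Δ. In LSK- WT replicate 1 it ranked 29918 in its list, just outside the 29829 peaks kept, and in LSK- XistΔ/Δ replicate 1 it ranked 28603, just inside. The summits held 16 fragments in LSK+ WT replicate 1, 57 and 35 for LSK+ XistΔ/Δ, 27 and 11 for LSK- WT and 69 and 29 for LSK- XistΔ/Δ. The Tlr13 region stood at 13.1 and 0 for LSK+ WT, 65.2 and 55.9 for LSK+ XistΔ/Δ, 52.9 and 0 for LSK- WT and 75.2 and 64.6 for LSK- XistΔ/Δ. It ranked 33503 for LSK- WT replicate 1, outside the peaks kept, and 28744 for LSK+ XistΔ/Δ replicate 1, just inside. With all deposited peaks, the only region in all 4 XistΔ/Δ and no WT lists lay at -3284 bases from the 5′ end of Tlr5, at 40.3, 32.6, 40.7 and 49.7. With the 25000 strongest peaks of each list, a setting chosen after seeing the data, neither region was in all 4 XistΔ/Δ libraries. The Tlr13 intron was higher in XistΔ/Δ in both LSK- pairs of the full lists and in 1 of the 2 on the lists of equal length.

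**Figure D4:**
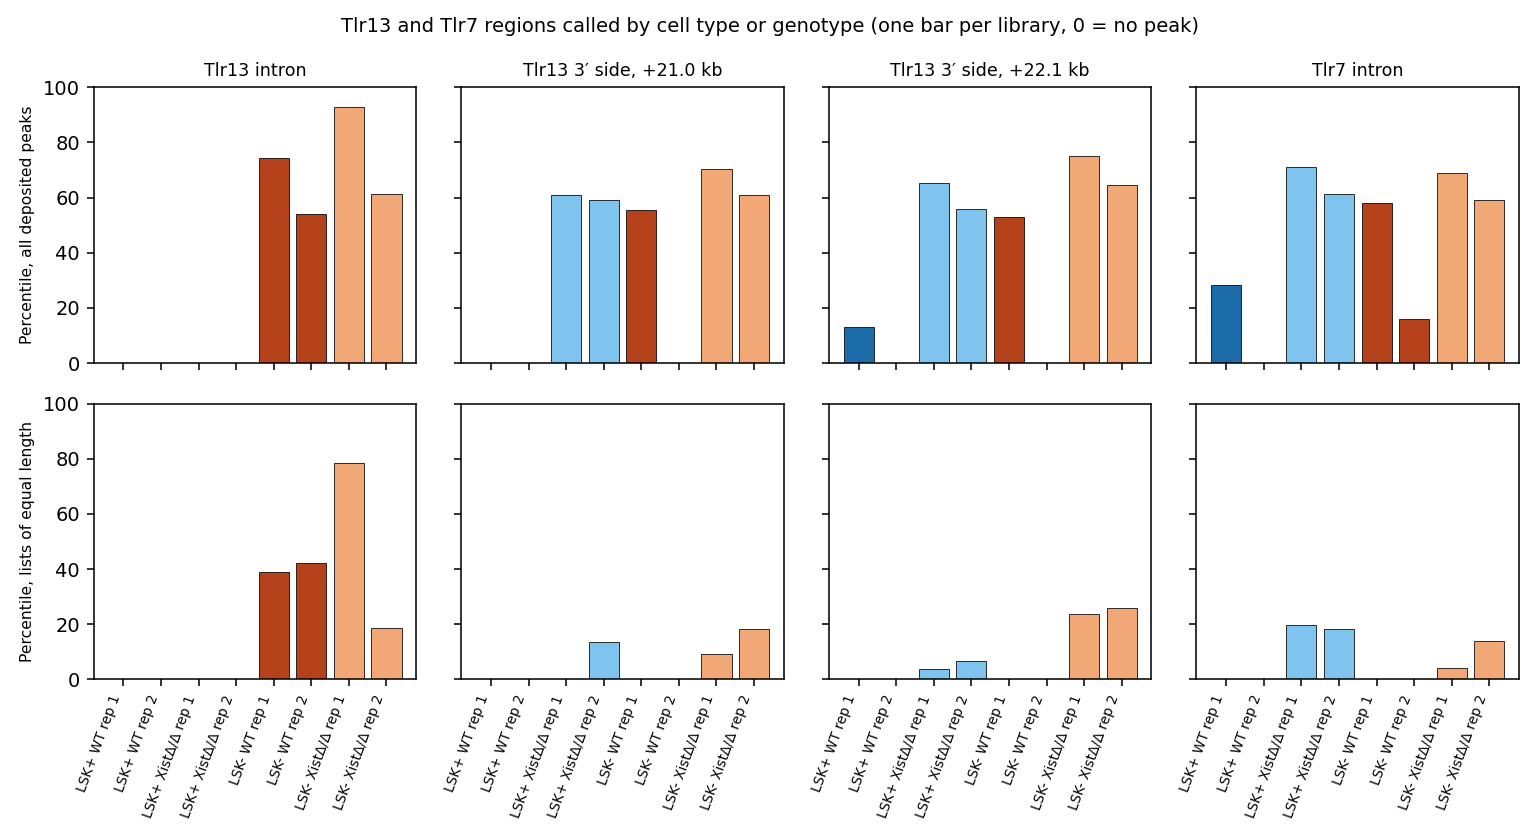
Percentiles of the Tlr13 intronic region, 2 regions beyond the 3′ end of Tlr13 and the Tlr7 intronic region in the 8 libraries (one bar each), in the full lists (top row) and in the lists of equal length (bottom row). The first is at 0 in all LSK+ bars of both rows. The Tlr7 region reaches 58.0 for LSK- WT replicate 1 in the full list and 0 in the list of equal length.

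Most other genes of the pathway had an open promoter in both cell types. Of 33 genes of the pathway, 30 had a TSS-proximal peak in all 8 libraries, and 1, the receptor Tlr11, in none. The 5 adaptors, such as Myd88 (92.2 to 99.2), had a median of 90.1 in LSK+ and 90.0 in LSK-, and the 3 trafficking factors had 96.7 and 98.0. Among these, Unc93b1, which carries the endosomal receptors to their compartment, was lower, with means of 74.7 and 84.1 and 37.0 in LSK+ WT replicate 2. The 5 co-receptors had medians of 47.8 and 26.4, with a peak of Cd36 in 3 libraries and of Ly86 in 6. The 10 kinases and ligases had 82.2 in both cell types. One of the 33 separated the cell types: Cd14, the co-receptor that passes lipopolysaccharide to Tlr4, at 36.01, 44.6, 43.6 and 32.7 in LSK+ and 24.9, 12.9, 27.3 and 18.6 in LSK-. Over all genes 2.09% separated in this direction and 1.90% in the other, so that 1 of 33 is near the background. In the full lists all 4 XistΔ/Δ percentiles lay above all 4 WT percentiles for 6 of the 33 (Tirap, Unc93b1, Irak2, Traf6, Traf3 and Nfkbia), where 8.66% of all genes did so. On the lists of equal length this held for Traf6 alone, the ubiquitin ligase after the Irak kinases, where 0.303% of genes did so.

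By the mean absolute difference of TSS-proximal percentile over the 8 libraries, the protein-coding genes closest to Tlr4 were Lpin3 (2.00 points), Spp1 (2.79) and Csf1 (3.02). Closest to Tlr2 were Ica1 (3.88), Mt3 (4.30) and Gsdme (4.41), to Tlr6 Nfam1 (3.93), Apob (4.29) and Slc7a4 (5.02), and to Tlr9 Nrp1 (4.97), Svop (5.70) and Tmem119 (6.57). For Tlr3 they were Plekhh1 (4.80), Prf1 (4.90) and Rnase10 (5.24), for Tlr5 Gm20547 (5.14), Gipr (5.58) and Arhgef6 (5.59), and for Tlr1 Mdk (5.24), Ptgfr (5.45) and Ccn4 (6.56). The likeness is taken over 8 libraries whose lists differ in length. Tlr7, Tlr8 and Tlr13 had TSS-proximal peaks in under 4 libraries and were not compared.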

How the data were processed

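Per the labels and the study's methods, the authors trimmed reads with Trim Galore, aligned them to mm10 with Bowtie2 2.3.5.1, removed mitochondrial reads and mapping qualities under 30 with SAMtools 1.10, and called peaks per library with MACS2 2.2.7.1 at q = 0.01 from paired-end fragments. No control library, duplicate removal or Tn5 shift is given in the sources used here. The deposited lists hold a score, the fold enrichment (a ratio), −log10 p, −log10 q and the summit offset, all the authors' values. They hold no read counts, so the read depth is unknown. Summit and background fragments were solved from fold and p (95.1% to 100% of peaks per list, within 0.01 of the −log10 p) and used as a depth proxy. The permutation test and this step were tested on simulated data.

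Peaks on chromosomes 1 to 19 and X were ranked by −log10 p, and the percentile of a peak is 100 times its rank from below over the list length. Genes came from GENCODE M21 (basic, GRCm38). LSK+ and LSK- were compared by two-sided exact permutation of cell type within genotype (36 assignments), with Benjamini-Hochberg adjustment over all genes or regions. A region was eligible for a call between 2 groups of 2 lists with a peak in at least 2 of the 4, and for a call over all 8 lists with a peak in at least 4. The 10 genes, the classes, the pathway and marker lists and the rule for named regions (strongest TSS-proximal and strongest region per gene, and each called region) were chosen with earlier results of these data known. The results of 1 LSK+ marker and 1 macrophage marker, and the sums of those lists, are not reported here. Of the pathway genes named, Myd88 and the role of Unc93b1 were picked as examples after the values were seen. Python 3.11.15, NumPy 2.4.6, pandas 2.3.3, SciPy 1.17.1 and matplotlib 3.10.9 were used.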

Additional observations from a re-analysis of the deposited data

Results flagged for a closer look

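For 3 regions the difference between LSK+ and LSK- went one way in both WT pairs and the opposite way in both XistΔ/Δ pairs. The difference between genotypes was not tested, and each rests on 2 pairs per genotype. For the Tlr7 intron, LSK+ minus LSK- was lower in WT than in XistΔ/Δ by -25.2 points: LSK- was the higher one in WT (58.0 and 16.1 against 28.2 and 0) and LSK+ in XistΔ/Δ (71.0 and 61.4 against 68.8 and 59.0). For the region beyond the 3′ end of Tlr8 at 167227013 to 167227631, the difference of differences was -38.0 points, with LSK- higher in WT (71.4 and 50.7 against 64.8 and 9.4) and LSK+ in XistΔ/Δ (83.3 and 76.4 against 59.4 and 72.3). For the Tlr5 intron it was -51.2 points, and there the missing peak of LSK- XistΔ/Δ replicate 2, at 0 where the other 7 libraries had 34.2 to 76.0, carries most of the value. The groups of 2 libraries are too small for a test of single libraries that stand apart.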

How the results depend on the processing

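With percentiles on the lists of equal length and presence on all deposited peaks, the genes separating the cell types became 1 (Tlr4), the cell-type-specific regions 8 in place of 3, the gained or lost regions 12 in place of 3, and the median genotype difference over regions 0 in place of 13.5 points, since 30 of 61 regions hold no peak there. Windows of 10 kb and 50 kb gave 1 and 8 cell-type-specific regions. The 50 kb window gave 68 regions in at least 4 libraries in place of 37, and 6 gained or lost, as a longer window holds more regions. A peak covering 50% of the merged region gave 5 cell-type-specific regions, and the Tlr13 intron was no longer among them. That intron was called when peaks were ranked by fold, with all deposited peaks and at −log10 q of at least 5. It was also called with the 25000 strongest peaks (added after seeing the data). Leaving out a library only loosens the rule, so a called region stays called and those runs are no check of it. The pattern of all 4 XistΔ/Δ and no WT libraries at Tlr7 and Tlr13 was lost when peaks were ranked by fold, at −log10 q of at least 5, with the 25000 strongest peaks and with 50% cover. The cause was not tested.

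Same-numbered libraries deviated together over regions in 6 of 6 group pairs (correlations of 0.161 to 0.464), but with 2 numbers per group and no label on what a number marks, the numbers are not taken to pair the libraries. The pair counts given above set same-numbered libraries side by side and are a description only. Under the replicate block, which compares libraries of one number (smallest p, 0.125), 3 genes (Tlr2, Tlr4 and Tlr6) kept one direction in all pairs, against 0 without overlap. The block changed no call, as neither fit can reach 0.05. Leaving out a library loosens the rule for a call, so the counts cannot fall below those of all 8 libraries. Leaving out each library in turn gave 3 to 9 cell-type-specific regions and 3 to 7 gained or lost regions. Both were above 1.5 times the values of all 8 libraries, except without LSK+ WT replicate 2, and highest without LSK- XistΔ/Δ replicate 1. The genes separating the cell types were 0 to 1 (1 without LSK- WT replicate 2 or LSK- XistΔ/Δ replicate 2). The share of these rises that comes from the looser rule was not tested. The sensors stayed below the surface receptors without any one library (-29.8 to -26.7 points), and by less with autosomal genes only (-12.01). The mean over the 10 genes of LSK+ minus LSK- was 0.704 and ran from -3.98 to 5.39. It was negative without 4 of the libraries and, with all 8, when peaks were ranked by fold (-1.22). By gene, the sign turned for Tlr1 (-14.1 to 8.04), Tlr3 (-7.24 to 15.5), Tlr6 (-21.8 to 0.171), Tlr7 (-2.08 to 8.12), Tlr8 (-3.28 to 17.1) and Tlr13 (-5.90 to 19.6), and for Tlr3 also when ranked by fold (-1.21). The other 4 genes kept their sign. Absence from a short or shallow list is a limited statement. The shortest list, LSK+ WT replicate 2, did not have the higher floor of fragments. Its listed peaks had at least 5 at the summit, against at least 13 in the longest list, LSK- XistΔ/Δ replicate 1. The background pileups of these libraries were 0.482 and 3.87.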
